A study of Mus musculus with 8 samples.

Results

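Meiotic recombination genes were followed in testis RNA of mice with and without CTCFL, starting from Mei1 and 8 genes that act with or after it. The set held Mei1, Spo11, Dmc1, Psmc3ip, Mnd1, Msh4, Msh5, Mlh3 and Prdm9, and its members were all probe sets that carry 1 of these symbols. All 9 genes had a probe set, and together they had 12 of the 45101 probe sets on the array, which name 20718 genes through probe sets of a single gene. The set was put together with the genotype differences of these arrays in view, so the differences of its members between genotypes are given as a description and are not tested.

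The samples were 8 testes taken at postnatal day 23, each hybridized to 1 Affymetrix Mouse430_2 array. Of these, 5 are labeled wildtype (replicates 1, 2, 4, 6 and 7) and 3 are labeled CTCFL mutant (replicates 3, 5 and 8). The study's text places the mice on a C57/Bl6 background and describes the mutants as homozygous for the Ctcfl del allele. In this allele exons of the gene were deleted by Cre from a chicken Actin-Cre transgene. The allele also carries a GFP coding sequence, introduced by targeting in ES cells of a strain other than C57/Bl6. The text describes the controls as heterozygous del/+ littermates, whereas the labels call them wildtype, which is the name used here. Whether a testis came from an animal of its own is not stated in the labels, so errors measure the spread between these samples. The level of Ctcfl itself was not analysed here, and genotypes are given as labeled.

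The tissue label was checked with marker genes. Of 13 probe sets of pachytene spermatocyte markers 12 lay above the median level of all probe sets, as did 18 of 23 for spermatids and 15 of 17 for Sertoli cells. The median level per array was between 6.40 and 6.45 on the log2 scale. A pair of arrays, wildtype replicate 7 and mutant replicate 8, lay away from the rest. Their scores on the first principal component were 40.2 and 38.2, against -24.8 to -3.10 for the others. Values are therefore also given without this pair. In whole testis, fewer cells of a type and less RNA per cell cannot be told apart.

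Meiotic recombination starts when SPO11 cuts both DNA strands at many sites along the chromosomes, which in mice are chosen by PRDM9 through the histone marks that it writes. MEI1 is required for these breaks to form. The broken ends are resected, and the recombinase DMC1 then pairs them with the homologous chromosome, helped by the HOP2 and MND1 proteins (HOP2 is encoded by Psmc3ip). The MSH4 and MSH5 proteins form a clamp on the joined molecules, and MLH3 acts in turning some of them into crossovers. In the testis these steps take place in primary spermatocytes.

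Since CTCFL binds DNA through zinc fingers very similar to those of CTCF, the promoter of Mei1, the gene with the largest genotype difference of the set, was read first. RefSeq (GRCm38.p6) gave 10 promoter windows for 8 of the 9 genes, each from 250 bases before to 50 bases after an annotated start, and none of them was matched for Spo11. The windows of Mei1 and Psmc3ip are shown because the first belongs to the gene that differed most and the second is the window of the set that holds a match to a CTCF core motif. The Mei1 window lies at chr15:82082226-82082525 on the plus strand and the Psmc3ip window at chr11:101095386-101095685 on the minus strand, and both are written in the direction of transcription. Capitals mark matches to any of the motifs that were searched.
Mei1: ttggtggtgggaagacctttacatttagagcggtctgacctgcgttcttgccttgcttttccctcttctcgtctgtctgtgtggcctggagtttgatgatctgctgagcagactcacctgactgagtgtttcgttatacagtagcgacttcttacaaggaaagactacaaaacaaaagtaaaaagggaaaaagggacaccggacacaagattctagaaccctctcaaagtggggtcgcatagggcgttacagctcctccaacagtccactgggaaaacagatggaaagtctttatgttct
Psmc3ip: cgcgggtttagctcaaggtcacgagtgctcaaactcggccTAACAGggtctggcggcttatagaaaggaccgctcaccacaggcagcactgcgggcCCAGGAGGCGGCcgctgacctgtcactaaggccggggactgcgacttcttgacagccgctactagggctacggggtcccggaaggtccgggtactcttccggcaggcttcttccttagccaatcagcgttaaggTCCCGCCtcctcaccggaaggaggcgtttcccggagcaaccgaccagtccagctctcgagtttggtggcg

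Both strands were searched for 5 motifs: the CTCF core (CCA, any 2 bases, AG, any 2 bases, GGC), the STRA8-MEIOSIN motif CNCCTCAG, the MYB motif TAACNG, the E2F motif TCCCGCC and the CRE core TGACGT. The Mei1 window held a match to none of these letters, and 46.7% of its bases were G or C, below the median of 52.7% over all 32851 windows. The Psmc3ip window held 1 match each to the CTCF core, the MYB motif and the E2F motif, with 62.7% G or C. The CTCF core was found in 1 of the 10 windows of the set and in 2.43% of all windows. The E2F motif was found in 4 of the 10 windows and in 11.3% of all windows, the MYB motif in 2 and 23.3%, the STRA8-MEIOSIN motif in 2 and 7.94%, and the CRE core in 0 and 7.51%. In a window of Prdm9 the E2F and STRA8-MEIOSIN matches overlap. These are matches of letters in a window, with no measurement of binding. The study reports that the CTCFL motif differs from that of CTCF at some positions. It also reports CTCFL sites that hold no consensus motif. A match to the CTCF core, or the lack of one, therefore does not show whether CTCFL binds a window.

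Mei1, with 1 probe set (1429929_at), was higher in every mutant testis than in every wildtype testis. Its log2 level was 6.80, 6.86, 6.88, 6.96 and 6.90 in wildtype replicates 1, 2, 4, 6 and 7, and 7.27, 7.17 and 7.41 in mutant replicates 3, 5 and 8. The wildtype values lay within a narrow range, and the lowest mutant value, that of replicate 5, was still above the highest wildtype value, that of replicate 6. The group means were 6.88 ± 0.05 (SD, n = 5) and 7.28 ± 0.12 (SD, n = 3), a log2 difference of 0.40 (SE 0.073) or 1.32-fold. By the moderated statistic of limma this probe set had rank 4 of 45101, which describes how it came to be in the set.

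The size of the Mei1 difference was also read without the pair of arrays that stood apart. Since the groups do not overlap, leaving out arrays could not change its sign. Among the other 6 arrays the mean levels were 7.22 in mutant and 6.88 in wildtype, a difference of 0.34 on the log2 scale. Between mutant replicate 8 and wildtype replicate 7, with 1 array each, the difference was 0.52. Leaving out each array in turn gave 0.34 to 0.46, and adding an offset on the linear scale, which compresses low levels, gave 0.28. The level of Mei1 lies only a little above the median of the array, at the percentile 59.2 of all probe sets.

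**Figure D1:**
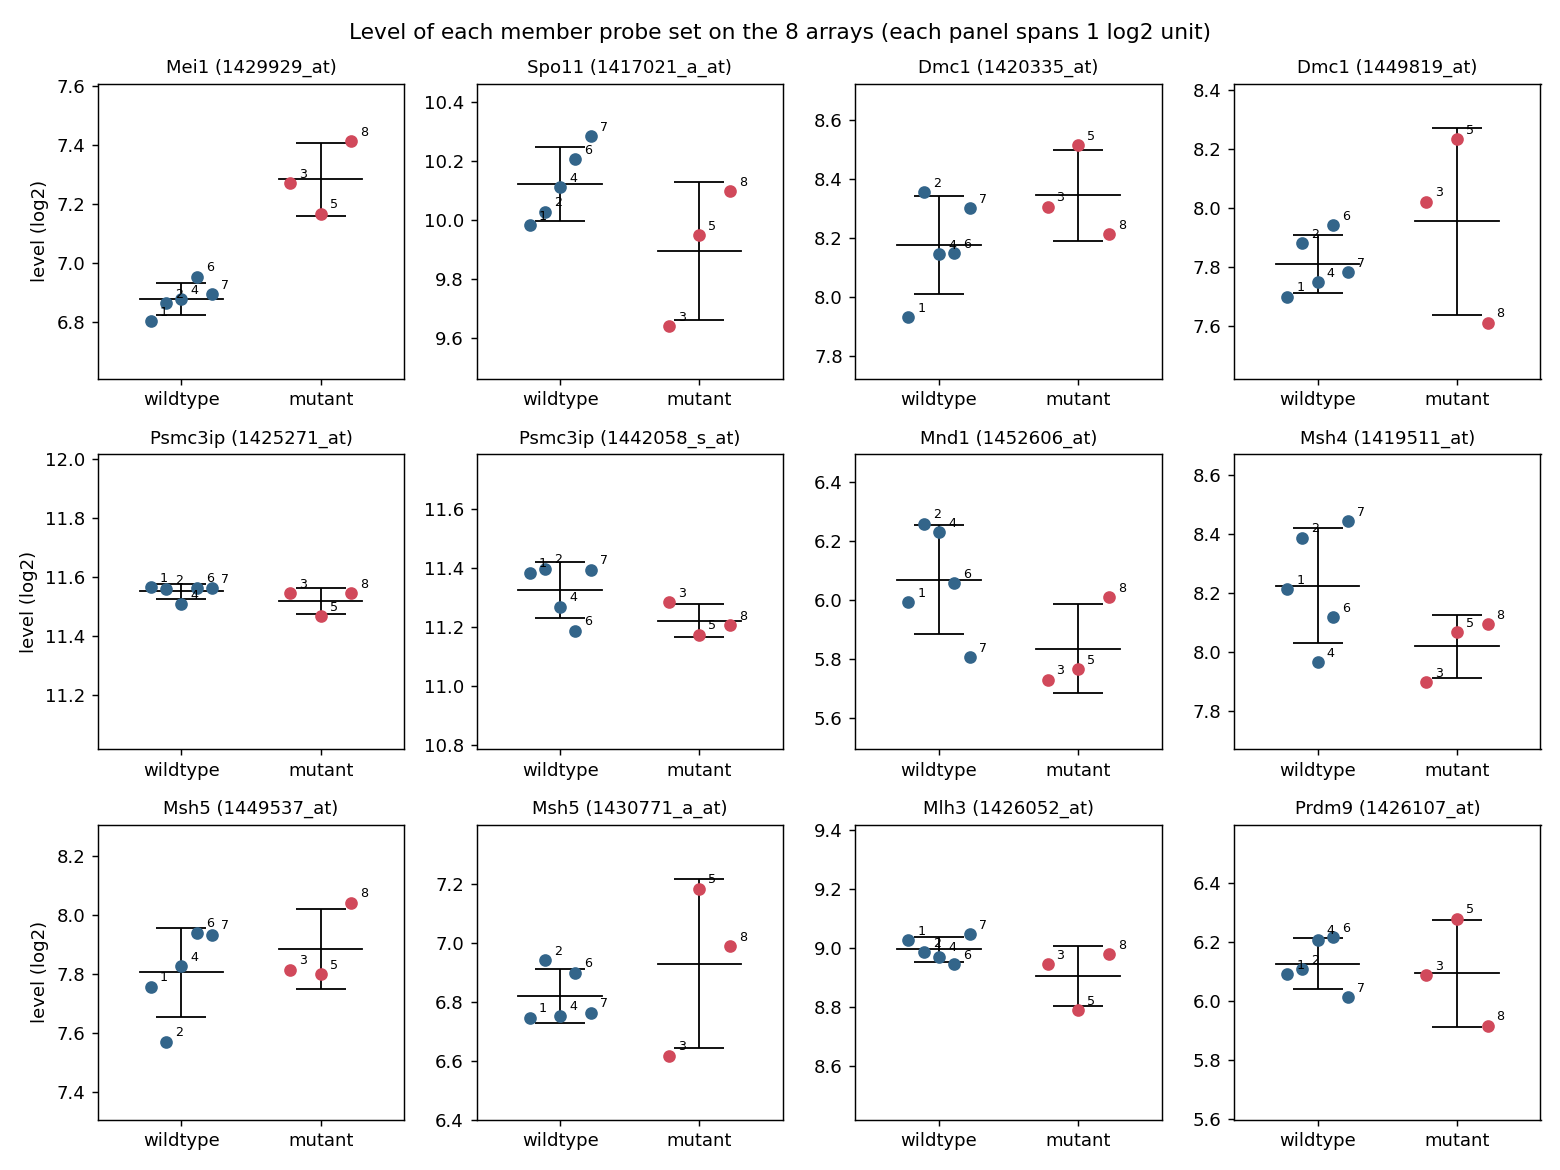
Each panel plots the log2 level of 1 member probe set (y axis) on the 5 wildtype and 3 mutant arrays (points, with replicate numbers), with the mean and SD in black, and every panel spans the same height of 1 log2 unit. The groups are apart for Mei1, from 6.80 to 6.96 in wildtype and from 7.17 to 7.41 in mutant, and overlap in the other 11 panels.

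In the whole table limma called 0 of 45101 probe sets at an adjusted p of 0.05 (0%), so 0 of the 12 member probe sets were called. At an unadjusted p of 0.05 the count over the table was 1564, and a one-way comparison without shared variance gave 0 after adjustment and 1708 before it. Of the 12 member probe sets, 1 was higher in mutant testis at the unadjusted threshold, that of Mei1, against 1.76% of all probe sets, and 0 were lower, against 1.70%. Groups without overlap were seen for 1 of the 12, higher in mutant, against 1.38% of all (1.31% for lower and 2.70% for either direction). Since the genotype contrast entered the choice of the set, nothing is read from these shares. The median difference of the 12 probe sets was -0.032 on the log2 scale, against 0.0032 over all probe sets. Of the 12 differences 5 were positive and 7 negative, against 23219 and 21882 over all probe sets.

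Of the genes that make or place the breaks, Spo11 had the lower mean in mutant testis. Its log2 level was 9.98, 10.03, 10.11, 10.21 and 10.29 in wildtype replicates 1, 2, 4, 6 and 7, and 9.64, 9.95 and 10.10 in mutant replicates 3, 5 and 8. The mutant values of replicates 3 and 5 were below all wildtype values, and that of replicate 8 was inside their range. The difference was -0.23 (SE 0.11), and it was -0.100 without mutant replicate 3, which had the lowest level of all. Among the 6 arrays that lay together it was -0.29, and between mutant replicate 8 and wildtype replicate 7 it was -0.19. The Spo11 probe set (1417021_a_at) carries a suffix for probes that match several transcripts of a gene.

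Prdm9, the histone methyltransferase that places the breaks, had almost the same level in both groups. It ranged from 6.01 to 6.22 in wildtype, with a median of 6.11, and was 6.09, 6.28 and 5.92 in mutant replicates 3, 5 and 8. Both the highest and the lowest value were therefore mutant. The difference was -0.033 (SE 0.091), and its sign changed under 3 of 14 alternatives, among them the 6 arrays alone, with 0.028. The level was below the median of all probe sets.

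The genes of strand exchange went different ways. Dmc1, the meiotic recombinase, was measured by 2 probe sets. On the first (1420335_at) the log2 levels were 7.93, 8.36, 8.15, 8.15 and 8.30 in wildtype replicates 1, 2, 4, 6 and 7, and 8.31, 8.52 and 8.21 in mutant replicates 3, 5 and 8. Mutant replicate 5 had the highest level and wildtype replicate 1 the lowest, and the remaining values were mixed. The difference was 0.17 (SE 0.11), and 0.14 (SE 0.13) on the second probe set (1449819_at).

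For Dmc1, as for Mnd1 and Prdm9, the difference within the pair of arrays had the opposite sign to that among the others. Among the 6 arrays the differences were 0.27 and 0.31 on the 2 probe sets. Between mutant replicate 8 and wildtype replicate 7 they were -0.088 and -0.17. On the second probe set mutant replicate 8 had the lowest level of the 8 arrays, 7.61, while mutant replicates 3 and 5 had the highest, 8.02 and 8.23. Without mutant replicate 5 the difference was 0.083 on the first probe set and 0.0054 on the second, and without wildtype replicate 1 it was 0.11 on the first.

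Psmc3ip and Mnd1 encode the partners of 1 complex that assists DMC1, and their probe sets behaved differently. The first Psmc3ip probe set (1425271_at) was the steadiest of the 12 member probe sets. It lay between 11.51 and 11.56 in wildtype and between 11.47 and 11.54 in mutant testis, with a difference of -0.032 (SE 0.058). Its pooled within-group SD of 0.033 was at the percentile 0.525 of all probe sets. The second probe set (1442058_s_at), with a suffix for probes that match more than 1 gene, had a difference of -0.11 (SE 0.073). Its pooled within-group SD was 0.083, at the percentile 18.4, and was above that of Mlh3 (0.068).

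Mnd1 had log2 levels of 5.99, 6.26, 6.23, 6.06 and 5.81 in wildtype replicates 1, 2, 4, 6 and 7, and of 5.73, 5.77 and 6.01 in mutant replicates 3, 5 and 8. The lowest 2 values were those of mutant replicates 3 and 5, followed by wildtype replicate 7, so the groups overlapped through the pair that stood apart. The difference was -0.23 (SE 0.11) over 8 arrays and -0.39 among the 6 arrays, whereas mutant replicate 8 was 0.20 above wildtype replicate 7. The level of Mnd1 was below the median of all probe sets, at the percentile 42.7.

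Among the genes of the later steps Msh4 had the largest difference. Msh4 had log2 levels of 8.21, 8.39, 7.97, 8.12 and 8.44 in wildtype replicates 1, 2, 4, 6 and 7, and of 7.90, 8.07 and 8.10 in mutant replicates 3, 5 and 8. Mutant replicate 3 was lowest, and the other 2 mutant values lay between those of wildtype replicates 4 and 6. The difference was -0.21 (SE 0.11), with -0.19 among the 6 arrays and -0.35 in the pair.

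Msh5, which encodes the partner of MSH4, had differences of the opposite sign. They were 0.079 (SE 0.10) on the probe set 1449537_at and 0.11 (SE 0.12) on 1430771_a_at, and both were within the spread of their groups. The difference on the first was 0.00077 without mutant replicate 8 and 0.020 without wildtype replicate 2, and on the second its sign turned to -0.018 without mutant replicate 5. Mlh3 lay between 8.94 and 9.05 in wildtype and at 8.95, 8.79 and 8.98 in mutant replicates 3, 5 and 8. Its difference was -0.090 (SE 0.067), and only mutant replicate 5 was below the wildtype range, without which the difference was -0.032.

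**Figure D2:**
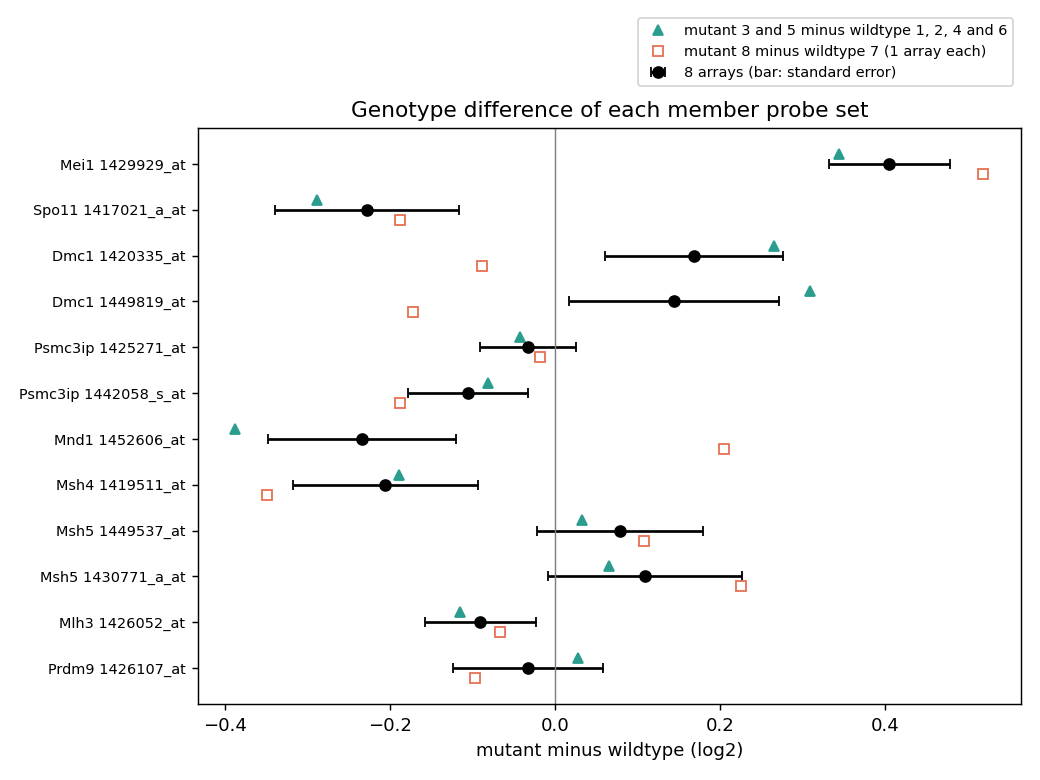
The x axis gives mutant minus wildtype on the log2 scale for each member probe set (y axis), as the difference over 8 arrays with its standard error (black), among the 6 arrays that lay together (triangles) and between mutant replicate 8 and wildtype replicate 7 (squares). The 3 values lie together for Mei1, at 0.34 to 0.52, and fall on both sides of 0 for Dmc1, Mnd1 and Prdm9.

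Between the 6 arrays and the pair, the sign of the difference was the same for 8 of the 12 member probe sets. The pair is 1 array against 1, and the share over all probe sets was not computed. The sign was the same in the 6 arrays as in all 8 for 11 of the 12, the exception being Prdm9. The 6 arrays are part of the 8, and the set was put together with these differences in view. Nothing is read from either count. Each of the 3 genes with 2 probe sets, Dmc1, Psmc3ip and Msh5, had differences of 1 sign on both of them. A difference of at least 0.2 on the log2 scale, in either direction, was seen for 4 of the 12 probe sets, those of Mei1, Spo11, Mnd1 and Msh4, against 5.22% of all probe sets. Since the genotype contrast entered the choice of the set, nothing is read from this share either. The standard errors of the members were 0.058 to 0.13. Differences of 0.2 therefore lie within a few standard errors, and 8 arrays do not show whether smaller ones exist.

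The pair of arrays that stood apart was compared with the other arrays of the same genotype. For each probe set the departure was taken as the level on wildtype replicate 7, or on mutant replicate 8, minus the median of the other arrays of that genotype. A departure of at least 0.5 on the log2 scale in 1 direction on both arrays was seen for 0 of the 12 member probe sets, 20 of 23 of the spermatid markers, 5 of 8 of the fat markers and 2.89% of all probe sets. The departures of the members ranged from -0.34 to 0.28 on wildtype replicate 7 and from -0.52 to 0.30 on mutant replicate 8. On their main probe sets Prm1 and Prm2, which encode the protamines that pack sperm DNA, departed by 3.07 and 3.10 on wildtype replicate 7 and by 3.21 and 2.76 on mutant replicate 8. Of the fat markers Adipoq departed by 1.82 and 2.25 and Car3 by 2.46 and 4.10 on these arrays. Spo11 lay above the other arrays on both, by 0.21 and 0.30, and Prdm9 lay below them, with departures of -0.14 and -0.27. The departures of Mnd1 were -0.34 on the first and 0.26 on the second. The synaptonemal complex and axis genes, which are active in the same cells, departed by medians of 0.17 and 0.14, against medians of 0.046 and 0.100 for the members.

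**Figure D3:**
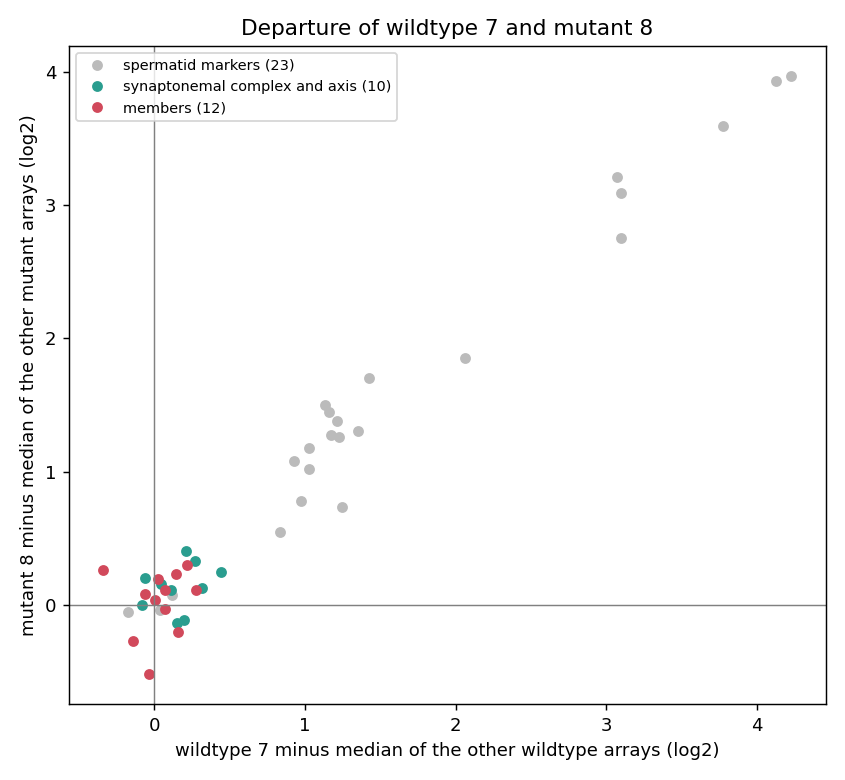
Each point is a probe set, with its departure on wildtype replicate 7 (x axis) and on mutant replicate 8 (y axis) from the median of the other arrays of its genotype, both on the log2 scale. The 12 member probe sets stay within -0.52 and 0.30 on both axes, beside the 10 probe sets of synaptonemal complex and axis genes, while 20 of 23 spermatid markers lie at 0.5 or more on both.

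The rest of the recombination pathway was taken from written lists of 4 steps, with 109 probe sets of 55 genes. With limma 0 of the 109 passed an adjusted p of 0.05, 2 were higher in mutant testis at the unadjusted threshold and 0 were lower. This is 1.83% of the 109, against 3.47% of all probe sets. The 2 were both of Brca1, which acts in the repair of double-strand breaks, and were named after their values were seen. They differed by 0.24 (SE 0.094) on 1424630_a_at, where the groups overlapped, and by 0.18 (SE 0.068) on 1451417_at, where they did not. The 3 further Brca1 probe sets differed by 0.12 (1424629_at), 0.071 (1443763_at) and -0.075 (1427698_at). Without mutant replicate 8 the count of 2 became 7, and it was 4 without wildtype replicate 6 or 7, 1 without wildtype replicate 2 or mutant replicate 5 and 7 without the pair. The count over all probe sets also rose, from 1564 to 2649 without mutant replicate 8 and to 2956 without the pair. It was 1408 and 1621 without wildtype replicate 6 or 7, and 1253 and 1220 without wildtype replicate 2 or mutant replicate 5. Nothing is read from these changes about the recombination genes. The median difference of the 109 was 0.011 on the log2 scale, against 0.0032 over all probe sets.

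The genes of each step with the smallest p in limma are given with the values of their main probe set, and all of them missed the adjusted threshold. Over all probe sets 23219 differences were positive and 21882 negative. Of the 21 probe sets for double-strand break formation 15 had a positive difference and 6 a negative one. Atm, the kinase that responds to breaks, differed by 0.63 (SE 0.51), Trip13 by 0.095 (SE 0.079) and Ankrd31, which is needed for timely break formation, by -0.10 (SE 0.090). Of the other 2 Trip13 probe sets 1 had 0.067 and 1 had -0.074. The Atm value came from a probe set (1421205_at) whose wildtype levels spread from 6.71 to 8.76, with mutant levels of 8.78, 7.46 and 8.62. The other Atm probe set (1428830_at) differed by 0.059 (SE 0.066), so no direction is given for Atm.

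Among the 48 probe sets for strand exchange, 26 had a positive and 22 a negative difference. Rad54b, a DNA translocase, differed by -0.21 (SE 0.10) and Xrcc2, which acts in homologous recombination, by -0.11 (SE 0.072). Other probe sets of both went the opposite way, 2 of Rad54b with 0.014 and 0.072 and 1 of Xrcc2 with 0.14. Of the 27 for crossover formation 12 were positive and 15 negative, with Tex11 at 0.19 (SE 0.094) and Rmi1 at -0.12 (SE 0.080). Of the 13 for hotspot choice 8 were positive and 5 negative, with Ewsr1 at 0.11 (SE 0.097), the chromatin remodeler Hells at 0.091 (SE 0.090) and the histone methyltransferase Ehmt2 at 0.056 (SE 0.063). Another probe set of Ewsr1 (1436884_x_at) had -0.044 and another of Hells (1453361_at) had -0.013.

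**Figure D4:**
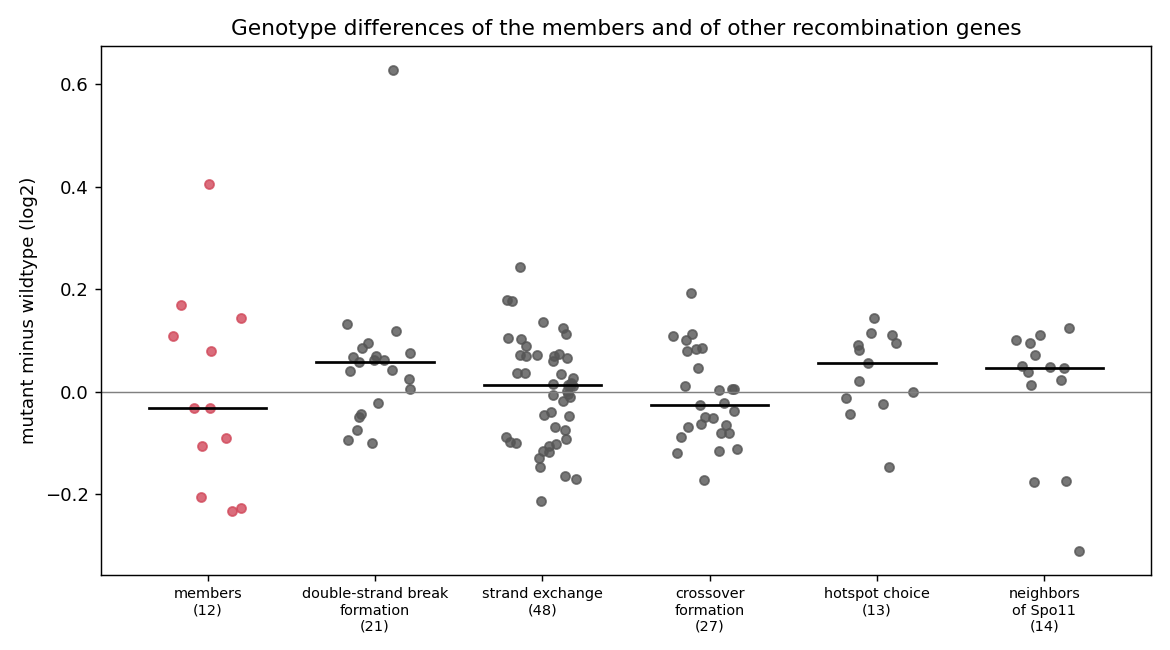
The y axis gives mutant minus wildtype on the log2 scale for each probe set (points) of the members, of 4 lists of other recombination genes and of the neighbors of Spo11, with the median of each list as a bar and the number of probe sets in parentheses. The member at 0.40 is Mei1, and the point at 0.63 in the list for double-strand break formation is the Atm probe set with widely spread levels.

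In the RefSeq gene table Spo11 lies close to Ctcfl on chromosome 2, with Rae1 and Rbm38 between them. Its neighbors were therefore read as well. The study does not state how much sequence of the ES cell strain remains around Ctcfl, and its part in these values was not tested. Of their 14 probe sets 0 passed an adjusted p of 0.05 with limma and 2 were lower in mutant testis at the unadjusted threshold, against 1.70% of all, and 0 were higher, against 1.76%. Both were of Pmepa1, a regulator of TGF-beta signaling on the far side of Ctcfl, and differed by -0.31 (SE 0.085) on 1422706_at, where the groups did not overlap, and by -0.17 (SE 0.075) on 1452295_at. The further Pmepa1 probe set (1422705_at) differed by 0.046 (SE 0.090). Rae1, an mRNA export factor next to Spo11, had levels between 10.48 and 10.60 in wildtype and between 10.64 and 10.71 in mutant testis, with a difference of 0.12 (SE 0.061) on its main probe set, without overlap. Its other 2 probe sets differed by 0.022 and -0.18, so no direction is given for Rae1. Rbm38 differed by 0.11 (SE 0.076).

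The probe sets whose 8 values were most like those of Mei1 were sought among 19973 probe sets with 1 gene name and a mean above the median. Probe sets of the member genes were left out of this search. Likeness was the root mean square difference between the values of both, each centered on its own mean, where Mei1 itself varied by 0.21 about its mean. The 5 closest were of Slc7a4 (0.087), Kazald1 (0.101), Ramp1 (0.102), Ly6e (0.104) and Araf (0.107), all on the log2 scale. Slc7a4, of the amino acid transporter family, lay between 8.83 and 8.95 in wildtype and between 9.14 and 9.27 in mutant testis. None of the recombination genes listed outside the set was among the 5, and the members could not be. The choice by likeness fixes that the groups of the 5 lie apart like those of Mei1.

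Markers of the testis cell types were set beside the members. The mean level of the spermatogonia list was 7.13 to 7.31 in wildtype and 7.19 to 7.37 in mutant testis. The synaptonemal complex and axis list had 11.09 to 11.28 and 11.00 to 11.18, and the pachytene list 11.73 to 11.79 and 11.61 to 11.77. The mean of the 12 member probe sets was 8.27 to 8.36 in wildtype and 8.26 to 8.37 in mutant testis. All these ranges overlap between the genotypes. The Sertoli cell list had 9.14 to 9.19 in wildtype testis and 9.36, 9.27 and 9.11 in mutant replicates 3, 5 and 8. The Leydig cell list had 7.64 to 7.96 in wildtype testis and 8.16, 7.86 and 7.71 in mutant replicates 3, 5 and 8. Only mutant replicate 3 lay above its wildtype range. A positive difference was seen for 16 of 17 probe sets of the Sertoli cell list and for 8 of 9 of the Leydig cell list. Over all 45101 probe sets 23219 differences were positive and 21882 negative. Probe sets of the same gene on the same arrays are not separate measurements. Mutant replicate 8 had the lowest level of the Sertoli cell list and the highest level of Mei1. This is 1 array, of the pair that stood apart, and no relation of Mei1 to the Sertoli cell list was tested. Of the synaptonemal complex and axis genes, 8 of 10 probe sets had a negative difference, and Sycp1, of the central part of the complex, had levels without overlap and differed by -0.25 (SE 0.080), while Sycp2 differed by -0.086 (SE 0.15). Of the spermatogonia markers, 11 of 14 had a positive difference, with the main probe sets of Gfra1 at 0.35 (SE 0.10) and Zbtb16 at -0.058 (SE 0.16). The groups overlapped on the main Gfra1 probe set. Its further probe sets differed by -0.043 (1421973_at) and 0.097 (1450440_at), so no direction is given for Gfra1. Further probe sets of Zbtb16 differed by -0.12 (1419874_x_at) and 0.011 (1427638_at). Of the pachytene markers Piwil1 differed by -0.17 (SE 0.084) and Ccna1 by 0.068 (SE 0.095), and of the Sertoli cell markers Sox9 by 0.13 (SE 0.095) and Amh by 0.071 (SE 0.12). The steroid enzymes Cyp17a1 and Cyp11a1 of Leydig cells differed by 0.055 (SE 0.26) and 0.14 (SE 0.17) on their main probe sets. Of the 9 Leydig probe sets 2 were higher at the unadjusted threshold (22.2%, against 1.76% of all). That of Star, which moves cholesterol into mitochondria, had 0.50 (SE 0.19) on 1418728_at. A further one of Cyp11a1 had 0.30 (SE 0.091) on 1439947_at, where the groups did not overlap. Both were named after their values were seen. At the same threshold 2 of 14 probe sets of the spermatogonia list were higher (14.3%), among them the main one of Gfra1. In the synaptonemal complex and axis list 1 of 10 was lower (10%, against 1.70% of all probe sets). In the Sertoli cell list 1 of 17 was higher (5.88%, against 1.76% of all), and in the pachytene list 0 of 13 passed. The lists for peritubular cells, macrophages and fat had median differences of 0.011, 0.011 and -0.097. No probe set of these lists passed an adjusted p of 0.05 with limma. The part of such shifts in the values of Mei1, Spo11 or Mnd1 was not tested.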

How the data were processed

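Each deposited value is the log2 level of a probe set on an array. The study's text names quantile normalization, RMA background correction and limma as what the authors applied, and for the arrays versions and a genome build are not given in the sources used here (a build is named for ChIP-seq, which is not analysed here). Sorted values of the arrays differ by at most 0.113. Columns and 2 further tables with the authors' own group means, differences, fold values and p-values were not used. Levels were fitted as deposited with lmFit and eBayes of limma 3.58.1 (R 4.3.3) over all 45101 probe sets, two-sided, with Benjamini-Hochberg adjustment, and the fit was tested on simulated data. Probe sets were named through Entrez IDs and a RefSeq table (GRCm38.p6, 33571 of 36858 probe sets with 1 ID matched), and probe sets with several genes were not named. The number of arrays limits the precision.

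Members and lists were chosen with earlier results of these data known. Of 68 listed recombination genes 13 had no usable probe set and were not analysed here. The main probe set of a gene was the one with the highest mean, taken first among those without a cross-hybridization suffix. Named from each recombination list are the 3 genes with the smallest p, and from marker lists for germ, Sertoli and Leydig cells the first 2; further Brca1 probe sets, Star and a further Cyp11a1 probe set were added after their values were seen, and 1 result that this rule names is not reported here. Alternatives were each array left out, the pair left out, centering, repeated quantile normalization, an offset of 64 on the linear scale, an intensity trend with a robust prior, array weights, probe sets above the median, 1 probe set per gene and a one-way comparison. Python 3.11.15, pandas 2.3.3, numpy 2.4.6 and matplotlib 3.10.9 were used.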

Additional observations from a re-analysis of the deposited data

Results flagged for a closer look

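In the wildtype group a search for single arrays at a distance from the rest covered 17 measures, the 12 member probe sets and the mean levels of 5 lists. It returned 1 of them, where chance gives about 5% of groups. This was Psmc3ip on the probe set 1425271_at, for which wildtype replicate 4 had 11.51 while the closest wildtype value was 11.56. The gap is small in size and large only beside the range of the other 4 values. The mutant group of 3 arrays was too small for this search.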

How the results depend on the processing

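No paired analysis was possible because no replicate number occurs in both genotypes. Under all 17 alternatives the adjusted count stayed at 0, and the smallest adjusted p among them was 0.100. The 1564 probe sets at an unadjusted p of 0.05 became 2956 without the pair of arrays and, in smaller tables, 707 for probe sets above the median and 680 for main probe sets alone, and 1220 to 2649 leaving out 1 array. The 2 of the other recombination genes became 7 without the pair, 5 with array weights, 1 with the trend and robust prior, 1 above the median, 0 with main probe sets alone (where their median difference turned to -0.0064) and 1 to 7 leaving out 1 array. Apart from the smaller tables, the cause was not tested. The Mei1 difference of 0.40 was positive under all 14 alternatives, at 0.28 with the offset and 0.34 to 0.46 leaving out 1 array. Leaving out arrays could not change its sign, since the groups do not overlap. Among the other members the sign changed only for Msh5 (1430771_a_at, in 1) and Prdm9 (in 3).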
